A study of Mus musculus with 6 samples.

Results

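Myostatin, activin receptors and follistatin are described here through 10 genes of the myostatin pathway, chosen by name from the 57010 genes of the deposited expression table. They are the ligand genes Mstn, Gdf11 and Inhba, the receptor genes Acvr2a, Acvr2b and Acvr1b, the genes of the secreted binding proteins Fst, Fstl3 and Fstl1, and the intracellular inhibitor Smad6. All 10 were in the table, and 7 of them reached 1 TPM in at least 3 of the 6 libraries, which was the requirement for being tested. TPM is a share of all transcripts corrected for transcript length, so levels of different genes can be compared within a library. RNA sequencing was done on gastrocnemius, a calf muscle of mostly fast fibres, from NSG mice, an immunodeficient strain. The radiotherapy group (n = 3) came from mice whose subcutaneous tumour, grown to about 800 mm3 on the left flank, received a single local dose of 10 Gy, with the muscle of the opposite side taken 3 days later. The control group (n = 3) is labelled only as control, and neither its tumour size nor its sampling day is stated there. Mice of both groups bore tumours of the human breast cancer cell line MDA-MB-231 with a knockdown of Rab27a, a small GTPase of vesicle secretion. The knockdown was thus in both groups and in human cells, so no mouse gene here checks it, and no group without it was analysed. The labels give no age or sex and do not say that each library is a different animal. The p-values therefore measure only the spread between these samples, which may be technical.

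Myostatin, the product of Mstn, is a secreted member of the TGF-β family made mainly by muscle fibres, and animals that lack it grow larger muscles. Mature myostatin, its close relative GDF11 and the activins bind the type II receptors encoded by Acvr2a and Acvr2b. These recruit a type I receptor, the product of Acvr1b (ALK4) or Tgfbr1 (ALK5), which phosphorylates SMAD2 and SMAD3, and follistatin blocks the ligands by wrapping around them.

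The 250 bases upstream of the annotated start are shown for Mstn and Acvr1b, because these were the members whose radiotherapy and control values did not overlap. Both are from RefSeq (GRCm38.p6) and are written 5′ to 3′ on the gene's own strand, the plus strand in each case. Mstn lies at chr1:53061390-53061639 and Acvr1b at chr15:101173822-101174071 in that build, which is not the mm9 build named for the deposited values. Capitals mark E-boxes (CANNTG, read on both strands), the motif that basic helix-loop-helix factors such as the myogenic regulator MyoD can bind.
Mstn: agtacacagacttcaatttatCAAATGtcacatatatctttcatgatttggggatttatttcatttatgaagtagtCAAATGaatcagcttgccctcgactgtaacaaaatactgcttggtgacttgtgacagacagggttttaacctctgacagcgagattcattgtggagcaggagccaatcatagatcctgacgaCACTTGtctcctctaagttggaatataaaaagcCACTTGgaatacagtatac
Acvr1b: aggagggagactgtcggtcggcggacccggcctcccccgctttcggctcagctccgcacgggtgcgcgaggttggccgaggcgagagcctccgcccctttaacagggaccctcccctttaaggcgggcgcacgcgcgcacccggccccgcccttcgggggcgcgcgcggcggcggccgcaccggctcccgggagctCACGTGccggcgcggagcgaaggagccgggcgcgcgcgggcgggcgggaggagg
The Mstn window held 4 E-boxes, with the nearest pair, both CACTTG, beginning 52 and 19 bases upstream of the start. It also held 2 copies of CAGAC, a SMAD-binding motif, and a TATAAA 29 bases upstream, and none of these matches overlapped a match of another motif. The Acvr1b window held 1 E-box, CACGTG, which began 54 bases upstream, and neither CAGAC nor TATAAA on either strand. Among 32851 windows of the same length, 66.2% held an E-box, 42.2% a CAGAC and 12.4% a TATAAA on either strand, so the first of these motifs is common. Base composition differed widely: G and C made up 38.4% of the Mstn window and 78.8% of the Acvr1b window, and 9.05% and 98.3% of all windows had a lower share. Windows were available for 9 of the 10 members, all but Fst.

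No gene of the whole table passed limma at an adjusted p of 0.05, with 0% of 11375 tested genes called and 435 of them (3.82%) below an unadjusted p of 0.05, 2.86% of tested genes in the lower and 0.967% in the higher direction. The 3 radiotherapy values lay wholly below the 3 control values in 7.54% of tested genes and wholly above them in 1.70%. On the log2(TPM + 1) scale used throughout, tested genes had a median log2 change of −0.11, with 67.9% of genes negative. The fast myosin gene Myh4, a defining marker of this muscle, was at 3354 to 6671 TPM in radiotherapy libraries and 7311 to 9393 TPM in controls. Radiotherapy library 2 stood apart with the largest mitochondrial share of TPM, and control library 1 with the highest value for 5 of 5 macrophage and 4 of 4 neutrophil markers. The libraries had 10890 to 11866 genes at 1 TPM or more after radiotherapy and 10902 to 11650 in control. Sequencing depth is unknown, because TPM values carry no record of read number.

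Myostatin mRNA was the most abundant of the 10 transcripts and stood lower in every radiotherapy library than in any control. Its gene Mstn (ENSMUSG00000026100) was at 20.9, 7.62 and 19.1 TPM in radiotherapy libraries 1, 2 and 3, against 25.7, 32.1 and 36.6 TPM in control libraries 1, 2 and 3. The groups did not overlap, with 4.85 TPM between the highest radiotherapy and the lowest control library, and radiotherapy 2 was far below the other two. The means were 15.8 ± 7.18 TPM after radiotherapy and 31.5 ± 5.49 TPM in control (SD, n = 3 each), a ratio of 0.503. The log2 fold change was −1.05 (SE 0.37, 95% interval −1.88 to −0.22), a value that 0.695% of tested genes reached or went below. It did not pass limma over all tested genes (unadjusted p = 0.0190, adjusted p = 0.977). Without radiotherapy 2 it was −0.62 (limma adjusted p = 1.00), while the median of all tested genes moved to −0.01.

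**Figure D1:**
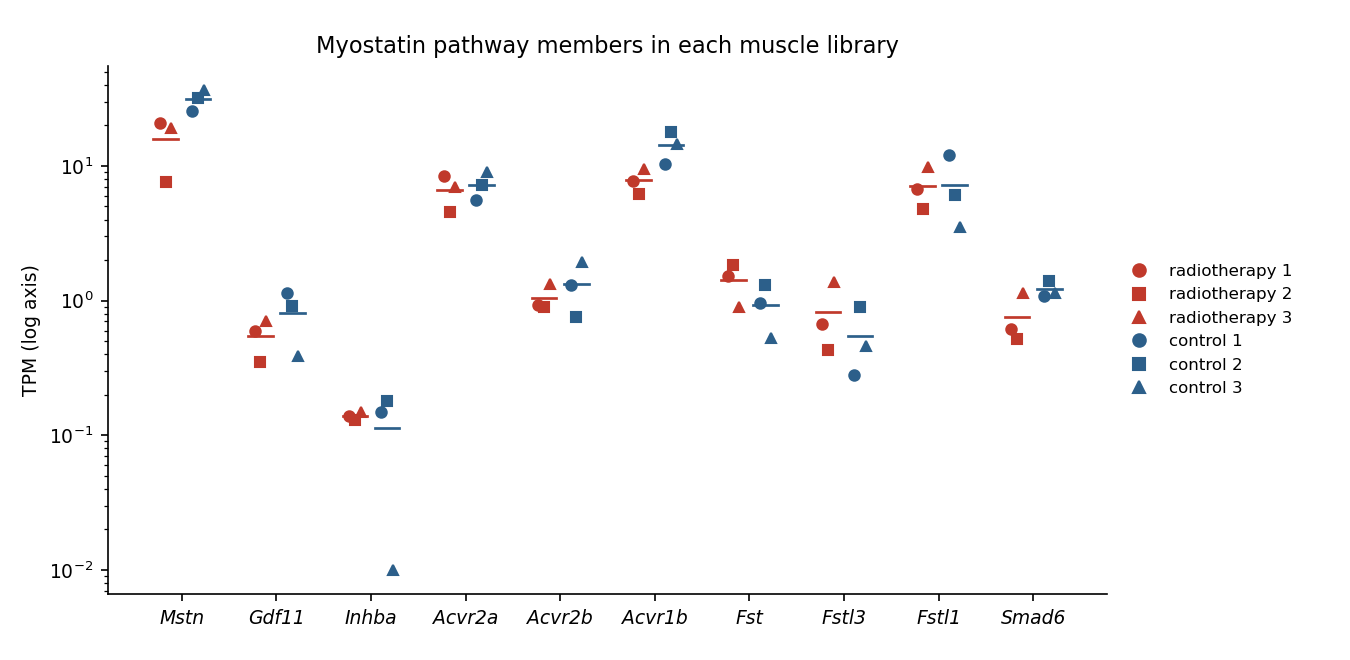
TPM of the 10 members on a log axis, ordered as ligands, receptors, binding proteins and Smad6, with radiotherapy in red left of control in blue, 1 symbol per library and a bar at the arithmetic mean of each group. Mstn (7.62 to 20.9 against 25.7 to 36.6 TPM) and Acvr1b (6.24 to 9.54 against 10.3 to 18.0 TPM) are the only members whose groups do not overlap.

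The other ligand genes were expressed at low levels. Gdf11, whose product acts in embryonic patterning and is the closest relative of myostatin, was at 0.59, 0.35 and 0.70 TPM in radiotherapy libraries 1, 2 and 3, against 1.13, 0.91 and 0.39 TPM in control libraries 1, 2 and 3. The groups overlapped, because control 3 was nearly as low as the lowest radiotherapy library. Inhba, which encodes the subunit of activin A, was at 0.13 to 0.15 TPM after radiotherapy and at 0.01 to 0.18 TPM in control, with the 0.01 in control 3. Both genes were below the filter; the limma fit without it gave −0.21 for Gdf11 (95% interval −0.72 to 0.29) and 0.04 for Inhba (95% interval −0.12 to 0.19), values understated by the pseudocount of 1 TPM. Mstn made up 94.1 to 96.7% of the summed TPM of these ligand genes in radiotherapy libraries and 95.3 to 98.9% in controls. The longest run of identical bases between the coding sequences of Mstn and Gdf11 was 12, and 0 of the 2704 distinct 31-base words of the Mstn transcripts occurred in a transcript of another gene (GENCODE M21).

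Among the receptor genes, the type I receptor gene Acvr1b was lower in every radiotherapy library than in any control, and the type II receptor genes were not. Acvr1b (ENSMUSG00000000532) was at 7.69, 6.24 and 9.54 TPM in radiotherapy libraries 1, 2 and 3, against 10.3, 18.0 and 14.5 TPM in control libraries 1, 2 and 3. Only 0.78 TPM separated radiotherapy 3 from control 1, so the groups stood apart by a narrow margin. The means were 7.82 ± 1.65 TPM after radiotherapy and 14.3 ± 3.84 TPM in control, and the log2 fold change was −0.78 (SE 0.28, 95% interval −1.40 to −0.15). It did not pass limma either (unadjusted p = 0.0207, adjusted p = 0.977), and 2.15% of tested genes had a value as low or lower. Without control 2, the highest library, the value was −0.60 (limma adjusted p = 1.00).

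Acvr2a, the more abundant type II receptor gene, was at 8.35, 4.56 and 6.99 TPM in radiotherapy libraries 1, 2 and 3, against 5.54, 7.28 and 8.98 TPM in control libraries 1, 2 and 3. The groups overlapped over most of their range, and the log2 fold change was −0.13 (95% interval −0.77 to 0.51, limma adjusted p = 0.984). Acvr2b, whose product binds myostatin most tightly of the type II receptors, was at 0.93, 0.89 and 1.33 TPM after radiotherapy, against 1.31, 0.76 and 1.95 TPM in control, in library order. Its lowest value was in control 2 and its highest in control 3, and the log2 fold change was −0.17 (95% interval −0.70 to 0.37, limma adjusted p = 0.979). Acvr2a made up 83.7 to 90.0% of the summed TPM of the type II genes in radiotherapy libraries and 80.9 to 90.5% in controls. Acvr2a overlaps Orc4 on the opposite strand, and 7.32% of its 31-base words also occur in Orc4 transcripts, which were at 13.1 to 20.1 TPM after radiotherapy and 14.9 to 17.8 TPM in control. The sources used here do not say whether counting used strand, so reads of these genes cannot be told apart there.

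**Figure D2:**
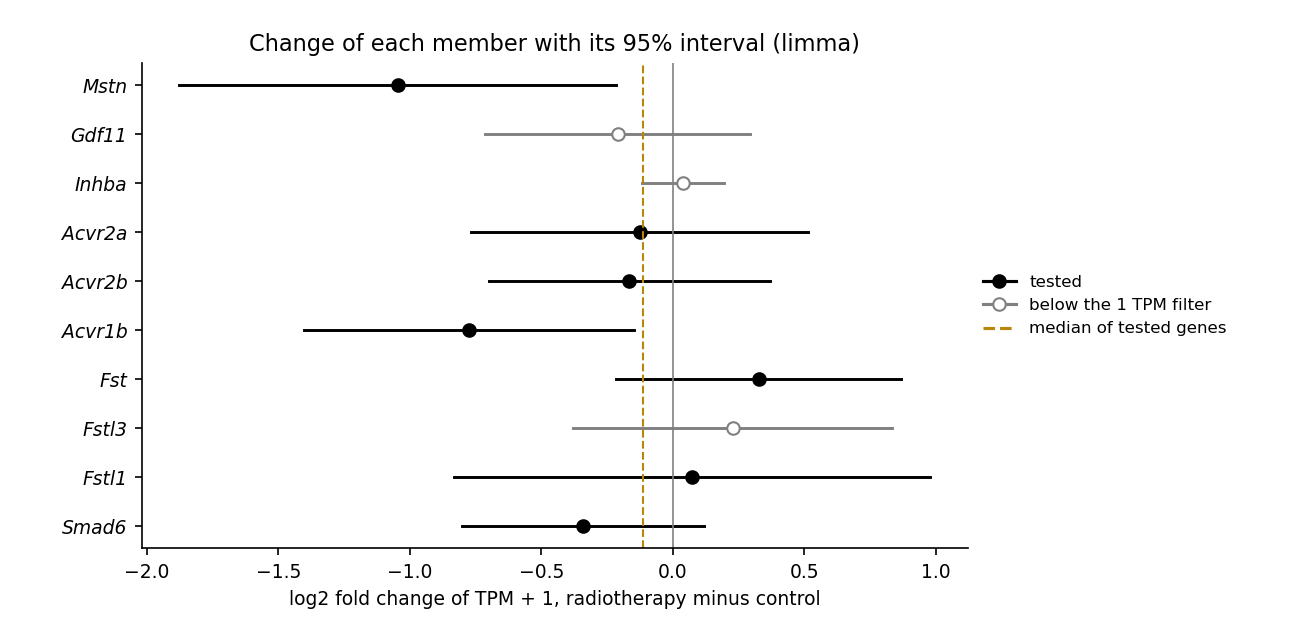
Log2 fold change of TPM + 1, radiotherapy minus control, for each member, with its 95% interval from limma; open symbols are members below the filter of 1 TPM, and the dashed line is the median of all tested genes (−0.11). Only the intervals of Mstn (−1.88 to −0.22) and Acvr1b (−1.40 to −0.15) leave out 0, and neither gene passed after adjustment.

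The binding protein genes Fst and Fstl3 had higher means after radiotherapy, but their groups overlapped. Fst encodes follistatin, the main extracellular inhibitor of myostatin and activins, and was at 1.52, 1.85 and 0.90 TPM in radiotherapy libraries 1, 2 and 3, against 0.96, 1.31 and 0.53 TPM in control libraries 1, 2 and 3. Radiotherapy 3 lay below controls 1 and 2, and the means were 1.42 ± 0.482 TPM after radiotherapy and 0.933 ± 0.391 TPM in control (SD, n = 3 each). The log2 fold change was 0.33 (95% interval −0.22 to 0.87, limma adjusted p = 0.977), and 0.58 with a pseudocount of 0.1 TPM.

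Fstl3, a related inhibitor without heparin binding, was below the filter, at 0.67, 0.43 and 1.37 TPM after radiotherapy, against 0.28, 0.89 and 0.46 TPM in control, in library order. Its value without the filter was 0.23 (95% interval −0.38 to 0.83), against 0.50 with a pseudocount of 0.1 TPM and 0.02 without radiotherapy 3. Fstl3 lies opposite Prss57, with 46.7% of its 31-base words also found there, but Prss57 itself was at 0.00 to 0.08 TPM after radiotherapy and 0.00 to 0.15 TPM in control. Fstl1 encodes a secreted glycoprotein that shares the follistatin domain but is not known as a myostatin inhibitor. It was at 6.79, 4.75 and 9.83 TPM in radiotherapy libraries 1, 2 and 3, against 12.0, 6.05 and 3.55 TPM in control libraries 1, 2 and 3, a spread wider within control than between the groups. Of the 31-base words of Fstl1, 8.45% also occur in transcripts of 72 other genes. The log2 fold change was 0.07 (95% interval −0.83 to 0.98, limma adjusted p = 0.991), and it was −0.28 without control 3. Fstl1 was highest in control 1, as were 6 of the 7 fibro-adipogenic progenitor markers (cells that lay down muscle connective tissue). Control 1 was also the highest library for 5 of 5 macrophage, 4 of 4 neutrophil, 4 of 6 slow fibre and 3 of 6 tenocyte markers. The summed TPM of the progenitor markers was 87.8 to 135 after radiotherapy and 93.5 to 170 in control. None of them was at 0 in all libraries, and their part in the Fstl1 values was not tested. In bulk muscle, fewer cells of a type and less RNA per cell cannot be told apart.

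Smad6 encodes an inhibitory SMAD of the bone morphogenetic protein (BMP) branch, which opposes myostatin signalling in muscle growth. It was at 0.62, 0.52 and 1.14 TPM in radiotherapy libraries 1, 2 and 3, against 1.09, 1.41 and 1.13 TPM in control libraries 1, 2 and 3. Radiotherapy 1 and 2 were below every control, while radiotherapy 3 lay within the control range. The log2 fold change was −0.34 (SE 0.20, 95% interval −0.80 to 0.12, limma adjusted p = 0.977), and −0.67 with a pseudocount of 0.1 TPM.

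The order of levels was alike at the top in both groups. After radiotherapy the means ran from Mstn through Acvr1b, Fstl1 and Acvr2a to Fst, Acvr2b, Fstl3, Smad6, Gdf11 and Inhba. In control they ran from Mstn through Acvr1b, Acvr2a and Fstl1 to Acvr2b, Smad6, Fst, Gdf11, Fstl3 and Inhba. Among neighbours after radiotherapy, the values of the 3 libraries stood apart only between Acvr2a and Fst and between Gdf11 and Inhba. In control, neighbours stood apart between Mstn and Acvr1b, between Acvr1b and Acvr2a, between Fstl1 and Acvr2b and between Fstl3 and Inhba. The gap between Mstn and Acvr1b was thus present in control, whereas after radiotherapy the 7.62 TPM of Mstn in radiotherapy 2 lay within the range of Acvr1b.

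Ratios of TPM values within a library do not depend on how libraries are scaled, and several set ligand against inhibitor. Mstn over Fst was 13.7, 4.12 and 21.2 in radiotherapy libraries 1, 2 and 3, against 26.8, 24.5 and 69.1 in control libraries 1, 2 and 3. Mstn over Fstl3 was 31.1, 17.7 and 13.9 after radiotherapy, against 91.8, 36.1 and 79.6 in control, in library order. Both ratios were lower in every radiotherapy library than in any control, by a mean of −1.75 and −1.70 on the log2 scale. The SD of the log2 ratio within a group was between 0.60 and 1.22 for these ratios, and Fst and Fstl3 were near or below 1 TPM, so the denominators are imprecise.

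Among receptors, Acvr1b over Tgfbr1, which encodes the alternative type I receptor for myostatin, was 1.19, 1.02 and 0.956 in radiotherapy libraries 1, 2 and 3, against 1.37, 1.65 and 1.54 in control libraries 1, 2 and 3. All radiotherapy values were lower, with mean log2 ratios of 0.07 ± 0.16 after radiotherapy and 0.60 ± 0.13 in control (SD, n = 3 each). Acvr2a over Acvr2b overlapped between the groups, at 5.12 to 8.98 after radiotherapy and 4.23 to 9.58 in control. The ratio of Mstn to Acvr2b overlapped too, at 8.56 to 22.4 after radiotherapy and 18.8 to 42.3 in control, as did that of Mstn to Gdf11, at 21.8 to 35.3 after radiotherapy and 22.7 to 93.9 in control. Fst over Fstl3 ranged from 0.657 to 4.30 after radiotherapy and from 1.15 to 3.43 in control. The ratios use values already given, so they were not tested.

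**Figure D3:**
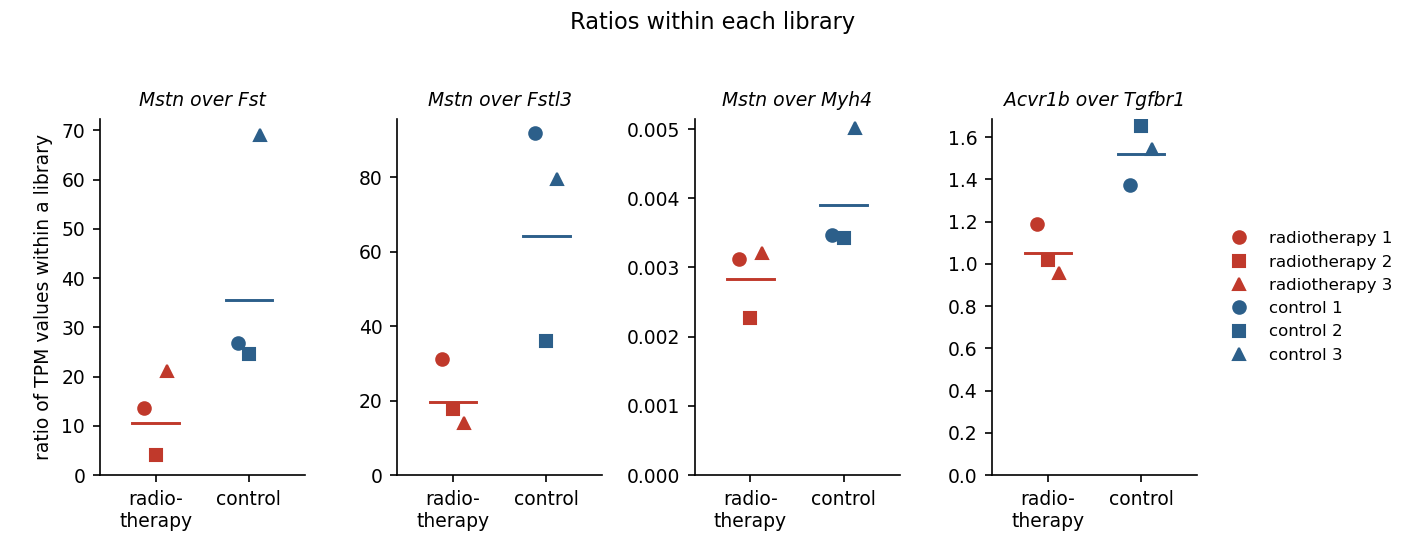
Ratio of TPM values within each library for 4 gene pairs on linear axes from 0, with radiotherapy in red left of control in blue, 1 symbol per library and a bar at the geometric mean. The 4 pairs shown are those whose groups did not overlap, and the other ratios given in the text overlapped. In each panel the 3 radiotherapy libraries therefore lie below the 3 control libraries, for example 0.956 to 1.19 against 1.37 to 1.65 for Acvr1b over Tgfbr1.

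Mstn is expressed most in fast glycolytic fibres. The 6 fast fibre markers had negative log2 fold changes (median −0.57), of which 0 passed limma (lowest adjusted p = 0.977). The groups overlapped for Pvalb alone, and 5 of the 6 lay wholly below control, beside 7.54% of all tested genes. The 6 slow fibre markers had positive values (median 0.31), with 0 passing and all groups overlapping. Without control 3 the slow fibre median was 0.05, and 2 of the 6 values were negative. The summed TPM of the fast markers was 45599 to 75328 after radiotherapy and 85091 to 92802 in control, with none at 0. Mstn over Myh4, the myosin of the fastest fibres, was 0.00313, 0.00227 and 0.00321 in radiotherapy libraries 1, 2 and 3, against 0.00347, 0.00342 and 0.00501 in control libraries 1, 2 and 3. The ratio was lower in each radiotherapy library, but by only 0.46 on the log2 scale between the means (SD 0.28 after radiotherapy and 0.31 in control). Mitochondrial genome transcripts made up 18.9, 22.5 and 15.1% of TPM in radiotherapy libraries 1, 2 and 3, against 10.4, 13.7 and 8.93% in control libraries 1, 2 and 3. With these and the 50 most abundant genes left out and the rest rescaled, the Mstn value was −0.97 and that of Acvr1b −0.71. Of 5 erythroid markers 5 had negative values, from −2.18 to −1.54, and 0 passed (lowest limma adjusted p = 0.648). All 5 lay wholly below control, beside 7.54% of all tested genes. Their summed levels were 930 to 1618 TPM after radiotherapy and 3352 to 7203 TPM in control. The 3 tested tenocyte markers had negative values and 0 passed (lowest limma adjusted p = 0.977). Groups overlapped for Thbs4, and 2 of the 3 lay wholly below control, beside the same 7.54%. The summed levels of all 6 listed were 12.0 to 17.5 TPM after radiotherapy and 20.2 to 42.4 TPM in control, where Kera was at 0 in radiotherapy 3. The part of fibre type, tendon and blood content in the Mstn and Acvr1b values was not tested.

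**Figure D4:**
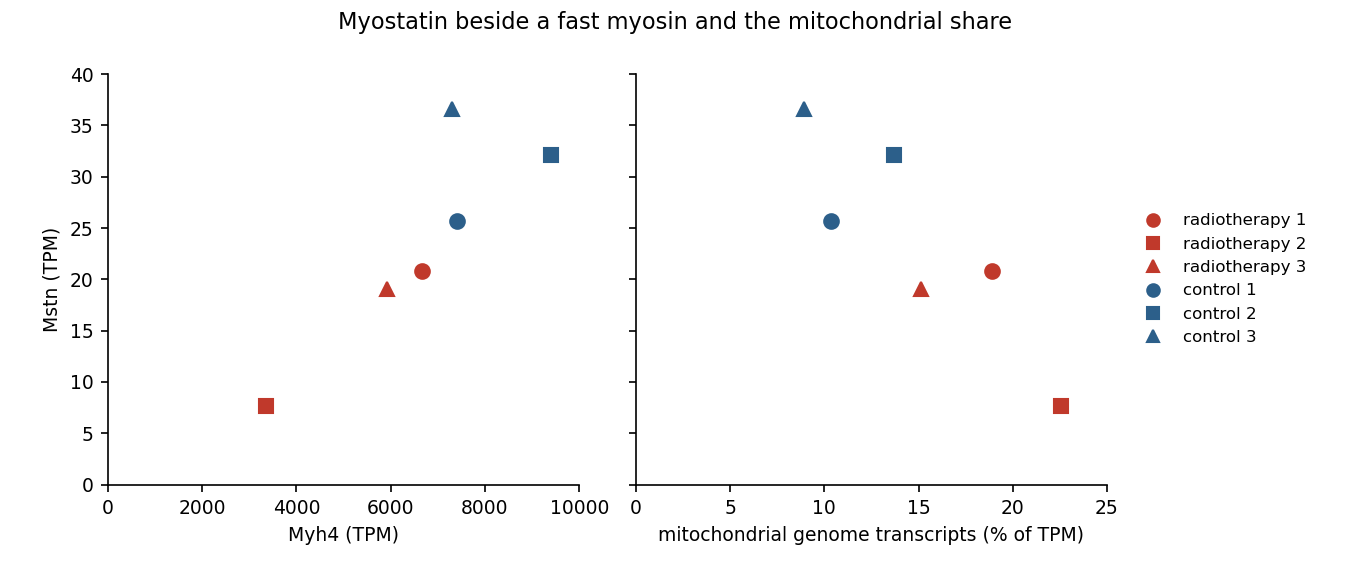
Mstn in TPM against Myh4 in TPM and against the mitochondrial share of TPM in percent, 1 point per library, radiotherapy in red and control in blue. Radiotherapy 2 has the lowest Mstn (7.62 TPM), the lowest Myh4 (3354 TPM) and the highest mitochondrial share (22.5%), and the 3 radiotherapy libraries lie below the 3 controls in Mstn and Myh4 and above them in the mitochondrial share.

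Across the 6 libraries Acvr1b followed Mstn more closely than the other tested members, with Pearson's r of log2(TPM + 1) of 0.86, and 0.85 over the 5 libraries without radiotherapy 2. The other tested members gave 0.79 for Smad6, 0.75 for Acvr2a, 0.43 for Acvr2b, 0.02 for Fstl1 and −0.72 for Fst. Without radiotherapy 2 the values were 0.53 for Smad6, 0.28 for Acvr2a, 0.29 for Acvr2b, −0.70 for Fstl1 and −0.45 for Fst. Outside the members, the fast fibre genes Myh4, Actn3 and Pvalb gave 0.95, 0.86 and 0.82, and mt-Cytb of the mitochondrial genome −0.86. Without radiotherapy 2 these genes gave 0.73, 0.90, 0.36 and −0.76 in the same order. The genes most like Mstn, leaving out predicted genes, were Glo1-ps (r = 0.999), a pseudogene of the glyoxalase Glo1, and Coq2, an enzyme of coenzyme Q synthesis. They were followed by Scp2, a peroxisomal sterol carrier, Spcs1, a subunit of signal peptidase, and Tarsl2, a threonyl-tRNA synthetase, all with r of 0.99 or above. Coq2 was at 41.8, 30.1 and 42.3 TPM in radiotherapy libraries 1, 2 and 3, against 46.7, 49.4 and 52.7 TPM in control libraries 1, 2 and 3. Group means were not removed before r was taken, so the difference between the groups already given for Mstn and Acvr1b enters their r. The 6 points share their libraries, and 882 of the 11375 tested genes had an r over 0.9, so these values are a description.

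Related genes of the family were counted in 7 lists with 113 distinct members, all in the table and 77 of them tested. None passed limma in either direction, 0 higher and 0 lower, and 62 of the 77 (80.5%) had negative values, beside 67.9% of all tested genes, with a median log2 fold change of −0.24 beside −0.11. These shares depend on the scaling and on radiotherapy 2. The share of negative values was 72.7% of the listed genes beside 56.1% of all tested genes with median-of-ratios scaling, 70.1% beside 52.3% with quantile normalization, and 68.8% beside 50.9% without radiotherapy 2. Without radiotherapy 2, 4 of the 8 tested receptor genes were negative. Of the 77 tested genes of all 7 lists, 5 (6.49%) did not overlap between groups, against 9.24% of all tested genes. These were Htra1, Wfikkn2, Nedd4l, Klf10 and Igf1. Of the same 77, 4 were below an unadjusted limma p of 0.05, beside 3.82% of all tested genes.

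Of 8 tested type I, type II and co-receptor genes, 7 were negative (median −0.19), with −0.28 for Tgfbr1, −0.28 for Acvr1, a BMP type I receptor, and −0.23 for the endothelial receptor gene Acvrl1. Acvr1c (ALK7), a further type I receptor, was below the filter at 0.04 to 0.15 TPM after radiotherapy and 0.00 to 0.08 TPM in control. Of 6 tested other ligands 5 were negative (median −0.26), among them Tgfb2 at −0.46 (SE 0.25), Tgfb3 at −0.48 (SE 0.30) and Tgfb1 at −0.43 (SE 0.37). Inhbb, the activin B subunit, was below the filter, at 0.64 to 1.20 TPM after radiotherapy and 0.63 to 1.34 TPM in control, and Inhbc, Inhbe, Gdf7 and Gdf2 were listed at 0 throughout.

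Proteins that hold myostatin latent or process it were represented by several genes. Among 12 tested antagonist and latency genes, 7 were negative (median −0.15). Htra1, a secreted serine protease that can act on TGF-β ligands, was at 12.3, 3.69 and 8.32 TPM in radiotherapy libraries 1, 2 and 3, against 15.2, 19.95 and 19.5 TPM in control libraries 1, 2 and 3. The groups did not overlap, and the value of −1.19 (SE 0.37) did not pass (limma adjusted p = 0.977). Wfikkn2, which encodes a protein that binds myostatin and its propeptide, was at 2.34, 0.99 and 1.80 TPM after radiotherapy, against 2.36, 3.30 and 3.13 TPM in control, in library order. Radiotherapy 1 and control 1 were almost equal, although the groups did not overlap, and the value was −0.56 (limma adjusted p = 0.977). Ltbp4, a latent TGF-β binding protein, gave −0.80 (SE 0.52) with overlapping groups. Of the 5 tested protease genes 4 were negative (median −0.20), with −0.51 for Furin (SE 0.39), the convertase that cleaves the myostatin precursor, −0.39 for Pcsk6 (SE 0.24) and −0.20 for Pcsk7 (SE 0.26).

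Inside the cell, 18 of 19 tested SMADs and SMAD regulators were negative (median −0.33), and radiotherapy 2 was the lowest library for 16 of the 21 listed. Smad7, Pmepa1 and Skil are also counted among the target genes, and Fbxo30 among the growth and atrophy genes. Smad3, which carries the myostatin signal to the nucleus, was at 5.12, 3.27 and 7.47 TPM in radiotherapy libraries 1, 2 and 3, against 18.9, 21.7 and 3.43 TPM in control libraries 1, 2 and 3. Control 3 lay among the radiotherapy values, and the log2 fold change was −1.06 (SE 0.58, limma adjusted p = 0.977). Nedd4l, a ubiquitin ligase that acts on activated SMADs, gave −0.55 (SE 0.26) and Ppm1a, a SMAD phosphatase, −0.61 (SE 0.34). Of 13 tested target genes 11 were negative (median −0.24), including Klf10 at −0.60 (SE 0.24) and Tgfbi at −1.08 (SE 0.62), while Cdkn1a, which p53 also induces, gave 0.98 (SE 0.40). With control 1 and radiotherapy 2 left out together, 5 of the 13 were negative (38.5%, median 0.02), beside 50.4% of all tested genes. In the same setting 16 of the 19 SMADs and SMAD regulators were negative. Cdkn1a overlapped, at 141 to 165 TPM after radiotherapy, against 52.3, 54.1 and 158 TPM in control libraries 1, 2 and 3. Tgfbi overlapped too, at 1.37 to 3.94 TPM after radiotherapy, against 18.1, 6.27 and 1.64 TPM in control libraries 1, 2 and 3. Its highest value was in control 1. That library was also highest for 5 of 5 macrophage, 4 of 4 neutrophil and 6 of 7 fibro-adipogenic progenitor markers. Any link of Tgfbi to these cells was not tested. Klf10, a TGF-β-inducible repressor, did not overlap between groups, at 13.1 to 17.3 TPM after radiotherapy and 20.1 to 26.4 TPM in control.

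Downstream growth and atrophy genes gave 14 negative values among 18 tested (median −0.29). Igf1, the growth factor that promotes muscle mass, stood out in the other direction, at 6.65, 3.41 and 3.90 TPM in radiotherapy libraries 1, 2 and 3, against 2.90, 1.32 and 0.58 TPM in control libraries 1, 2 and 3. Every radiotherapy library was above every control, and the log2 fold change of 1.18 (SE 0.36) did not pass (unadjusted p = 0.00917, limma adjusted p = 0.977). Mef2c, a muscle transcription factor, gave −0.72 (SE 0.39) and the insulin-pathway kinase gene Akt2 gave −0.64 (SE 0.36).

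**Figure D5:**
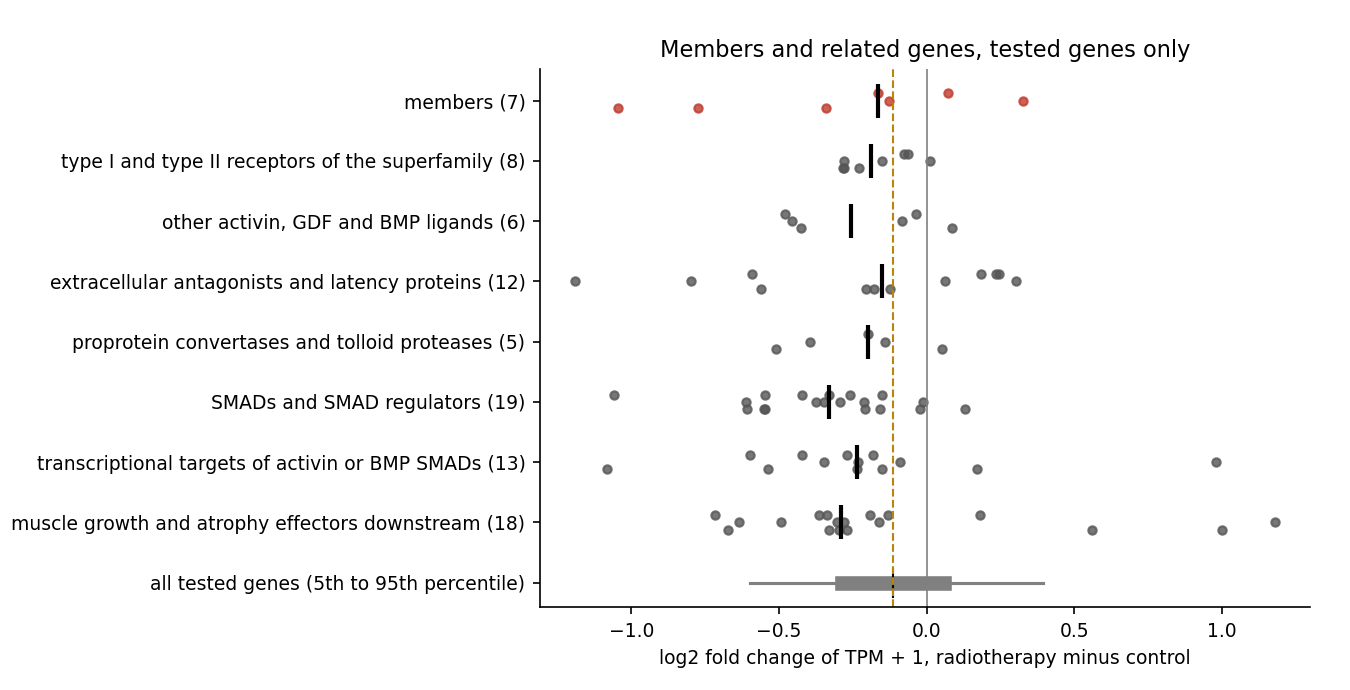
Log2 fold changes of TPM + 1, radiotherapy minus control, of the tested members (red) and of the tested genes in 7 related lists (grey), with the number tested in brackets and a bar at each median; the bottom row gives the 5th to 95th percentile (line) and the quartiles (thick line) of all tested genes, and the dashed line their median. List medians lie between −0.33 and −0.15, and no plotted gene passed limma after adjustment.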

How the data were processed

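Gastrocnemius RNA of 3 radiotherapy and 3 control samples, grouped by the labels, was sequenced from TruSeq libraries (labels' protocols). The values deposited by the authors are TPM, with 1 column per sample, each summing to 1000000 within rounding. HISAT2, StringTie, RSEM and build mm9 are named in the submitters' processing notes; the sources used here give no versions, annotation or strandedness. Depth is therefore unknown and no counting interval is given.

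TPM values were transformed to log2(TPM + 1). The 11375 genes that reached 1 TPM in 3 or more of the 6 samples were tested with limma 3.58.1 in R 4.3.3 (mean-variance trend, group as the only term, two-sided, Benjamini-Hochberg over all tested genes, threshold 0.05). Members below the filter were taken from a fit of the 26621 genes above 0 in any sample. No set test was run. The fit was tested on simulated data.

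The members, the 7 pathway lists and the 12 marker lists were chosen with earlier results of these data known. Named genes were all members, the 3 tested genes of smallest p in each pathway list and the 5 most and 5 least like Mstn by Pearson's r. Listed genes below the filter, cell markers, ratio partners and genes on the opposite strand were named in addition, after their values were seen. Transcript overlap used GENCODE M21 and upstream windows RefSeq. Alternatives changed the pseudocount, filter, scaling, model, block and samples. The labels number replicates alike without stating a pairing. Figures used matplotlib 3.10.9 in Python 3.11.15.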

Additional observations from a re-analysis of the deposited data

How the results depend on the processing

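Across 16 alternatives no member passed limma at an adjusted p of 0.05. Mstn (−1.29 to −0.62), Acvr1b (−0.97 to −0.60), Smad6 (−0.67 to −0.24), Fst (0.17 to 0.58) and Fstl3 (0.02 to 0.50) kept their sign wherever a value could be had. With single libraries left out, 4 members changed sign, and the range was −0.031 to 0.081 for Inhba, −0.28 to 0.47 for Fstl1, −0.29 to 0.086 for Acvr2a and −0.36 to 0.017 for Acvr2b. Acvr2a was also at 0.00022 with quantile normalization, and Gdf11 at 0.013 with control 1 and radiotherapy 2 left out together; the cause was not tested. Among all genes, leaving out 1 library gave 0 to 1 calls, namely Gm24497 without radiotherapy 1 and Gm55635 without control 1, both named after their values were seen. Leaving out control 1 and radiotherapy 2 together gave 8 calls. With the replicate number as a block, 0 genes and 0 members passed. Deviations of same-numbered libraries from their group means had r across genes of −0.06, 0.02 and −0.11. Those of differently numbered libraries had r from −0.13 to 0.17. With 3 libraries per group, such weak values cannot decide whether the numbers pair the samples. Members under 5 TPM had no value under that filter. Median-of-ratios scaling moved the median of all tested genes from −0.11 to −0.04 and quantile normalization to −0.01. Without depth, differences among Gdf11, Inhba, Fst, Fstl3, Acvr2b and Smad6, all below 2 TPM, have no counting error attached.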

Other observations

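The tested genes least like Mstn across the 6 libraries, leaving out predicted genes, were Srrm4os (Pearson's r = −0.999), Sln (−0.98), Nemp1 (−0.96), Evc (−0.95) and Chaserr (−0.94), given as a description. Sln encodes sarcolipin, an inhibitor of the sarcoplasmic reticulum calcium pump. It was at 20.2, 151 and 25.5 TPM in radiotherapy libraries 1, 2 and 3, against 11.6, 8.71 and 10.6 TPM in control libraries 1, 2 and 3. Every radiotherapy library was above every control, as in 1.70% of tested genes, and radiotherapy 2 was far above the others. The log2 fold change was 1.97 (SE 0.64) and did not pass (limma adjusted p = 0.977). Sln was picked for running opposite to Mstn, whose groups did not overlap, so its separation follows in part from that choice. Evc, a ciliary component of hedgehog signalling, was at 3.37, 7.52 and 3.99 TPM in radiotherapy libraries 1, 2 and 3, against 2.54, 2.86 and 2.85 TPM in control libraries 1, 2 and 3.

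Other cell type markers varied between single libraries. Adipocyte markers summed to 1508, 197 and 225 TPM in radiotherapy libraries 1, 2 and 3, against 112, 276 and 26.6 TPM in control libraries 1, 2 and 3. Schwann cell markers summed to 438 TPM in radiotherapy 3 and 21.1 and 131 TPM in the other radiotherapy libraries, against 20.3 to 78.7 TPM in control. Macrophage markers summed to 9.12 to 36.9 TPM after radiotherapy and 7.76 to 81.1 TPM in control, and neutrophil markers to 148 to 661 TPM after radiotherapy and 271 to 1594 TPM in control. Slow fibre markers summed to 1352 to 1792 TPM after radiotherapy and 725 to 2021 TPM in control, satellite cell markers to 10.6 to 31.6 and 15.2 to 20.6 TPM, endothelial markers to 70.8 to 109 and 71.3 to 98.9 TPM, and smooth muscle and pericyte markers to 96.0 to 128 and 71.5 to 118 TPM, each given for radiotherapy and then control.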
